A study of Saccharomyces cerevisiae with 18 samples.

Results

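The G1 and B-type cyclin genes of the budding yeast Saccharomyces cerevisiae are described here as a set of 10 transcripts, picked by name from the 6612 in the table of transcript levels: CLN1 (YMR199W), CLN2 (YPL256C), CLN3 (YAL040C), PCL1 (YNL289W), PCL2 (YDL127W), CLB1 (YGR108W), CLB2 (YPR119W), CLB5 (YPR120C), CLB6 (YGR109C) and SIC1 (YLR079W), which is an inhibitor and not a cyclin. All 10 were found. Polyadenylated RNA was sequenced from 18 liquid cultures of 5 mL, 3 biological replicates for each of 6 groups. A group is 1 of 2 strains, RM11 or YJM975, in 1 of 3 media. RM11 derives from a vineyard isolate and YJM975 is a clinical isolate. Both are labelled as homozygous a/α diploids, and no other allele or treatment is named. The medium was S-CSM with 2% glucose, glycerol or ethanol, and cells were taken at an optical density of 0.5 to 1.0, given as exponential growth. Each strain is 1 genotype, so a strain difference holds for these 2 genotypes.

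Cyclins bind a cyclin-dependent kinase and time its activity. In G1, Cln3 with the kinase Cdc28 relieves the repressor Whi5 at the transcription factors SBF (Swi4 and Swi6) and MBF (Mbp1 and Swi6), which then drive CLN1, CLN2, PCL1, PCL2, CLB5 and CLB6 at the point of commitment called Start. Clb5 and Clb6 start DNA replication once their inhibitor Sic1 is destroyed, Clb1 and Clb2 drive mitosis, and SIC1 is made again by the factor Swi5 at mitotic exit. Cells that grow slowly on poor carbon sources spend a longer part of the cycle in G1. In RNA from whole cultures, fewer cells in a phase and less RNA per cell cannot be told apart.

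Promoter stretches of 5 members are printed because they hold the SCB matches of CLN2, PCL1 and PCL2 and the MCB matches of CLN1 and CLB6. SCB (CGCGAAA or CACGAAA) is the binding sequence of SBF and MCB (ACGCGT) that of MBF, and matches on either strand are in capitals. They come from the RefSeq R64 assembly of strain S288C and not from RM11 or YJM975, are written 5′ to 3′ on the gene's strand, and lie at chrXIII:662004-662063 (CLN1, plus strand, 640 to 581 bases before the start codon), chrXVI:67135-67234 (CLN2, minus strand, 620 to 521 before), chrXIV:87557-87616 (PCL1, plus strand, 340 to 281 before), chrIV:234517-234576 (PCL2, plus strand, 410 to 351 before) and chrVII:706862-706921 (CLB6, minus strand, 420 to 361 before).
CLN1: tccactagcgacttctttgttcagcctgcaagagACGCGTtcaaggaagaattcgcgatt
CLN2: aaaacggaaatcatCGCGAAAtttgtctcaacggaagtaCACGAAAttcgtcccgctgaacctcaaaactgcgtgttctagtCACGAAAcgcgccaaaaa
PCL1: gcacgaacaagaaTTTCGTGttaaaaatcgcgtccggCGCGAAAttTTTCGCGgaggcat
PCL2: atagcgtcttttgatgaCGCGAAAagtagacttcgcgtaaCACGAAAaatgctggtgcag
CLB6: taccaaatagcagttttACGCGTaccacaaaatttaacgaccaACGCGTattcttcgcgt
In the 800 bases before the start codon, CLN2 and PCL1 held 3 SCB matches each, PCL2 held 2, and CLN1 and SIC1 held 1 each, at 792 and 7 bases before the start codon and outside the printed stretches. CLB6 held 2 MCB matches and CLN1 held 1. Of 6003 windows of that length, 17.0% held an SCB match and 1.88% at least 2, while 7.63% held an MCB match and 0.766% at least 2. Letters were also searched for forkhead factors (GTAAACA) and Xbp1 (CTCGAG), on both strands. Each was found upstream of 4 members, and in 15% and 12.1% of all windows. In the shorter window of 250 bases before to 50 after the start codon, the SCB match of SIC1, 7 bases before it, was the single match of any of the 4 kinds, and 7.69% of 6007 such windows held an SCB. The longer window was chosen after the shorter one had been searched. Windows can reach into a neighbouring gene, and a match is a string of letters, not a bound site.

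The levels are TPM, a measure scaled for transcript length and to a fixed total of 1000000 in every library. Depth cannot be read from them, so no counting interval is given. Differences are log2 of TPM + 1 with the standard error, and a call is an adjusted p below 0.05 in limma over the 6309 transcripts with a mean of at least 1 TPM. The members tested were 9 of the 10. CLB6, with a mean of 0.969 TPM over all libraries, was below that mean, and its differences come from a fit without the filter. A name prefix in the sample descriptions was read here as a run label. Libraries labelled glucose carried 1 such label (6 libraries) and those of glycerol and ethanol another (12). On that reading a change from glucose and a change of run cannot be told apart, while strain differences lie within a run. HXK2 is a hexokinase gene induced by glucose. Its RM11 mean was 2.30 ± 0.0468 TPM under the glucose label, 71.3 ± 6.78 TPM in glycerol and 1.79 ± 0.547 TPM in ethanol, and its YJM975 means were 5.08 ± 0.534, 1.84 ± 0.316 and 5.26 ± 0.697 TPM (SD, n = 3). ICL1, the isocitrate lyase gene that glucose represses, averaged 1791 TPM under the glucose label, 511 in glycerol and 1626 in ethanol for RM11, and 401, 464 and 1870.1 for YJM975. FBP1, which glucose also represses, averaged 809 TPM under the glucose label against 249.9 in ethanol for RM11, and 353 against 198 for YJM975. In RM11 HXK2 was highest in glycerol, and in both strains FBP1 was higher under the glucose label than in ethanol. ICL1 was lowest in glycerol in RM11. These levels put the glucose label in doubt, and in RM11 the glycerol label as well. A medium named below, as in "in glucose", "from glucose" or "in glycerol", is the label only.

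**Figure D1:**
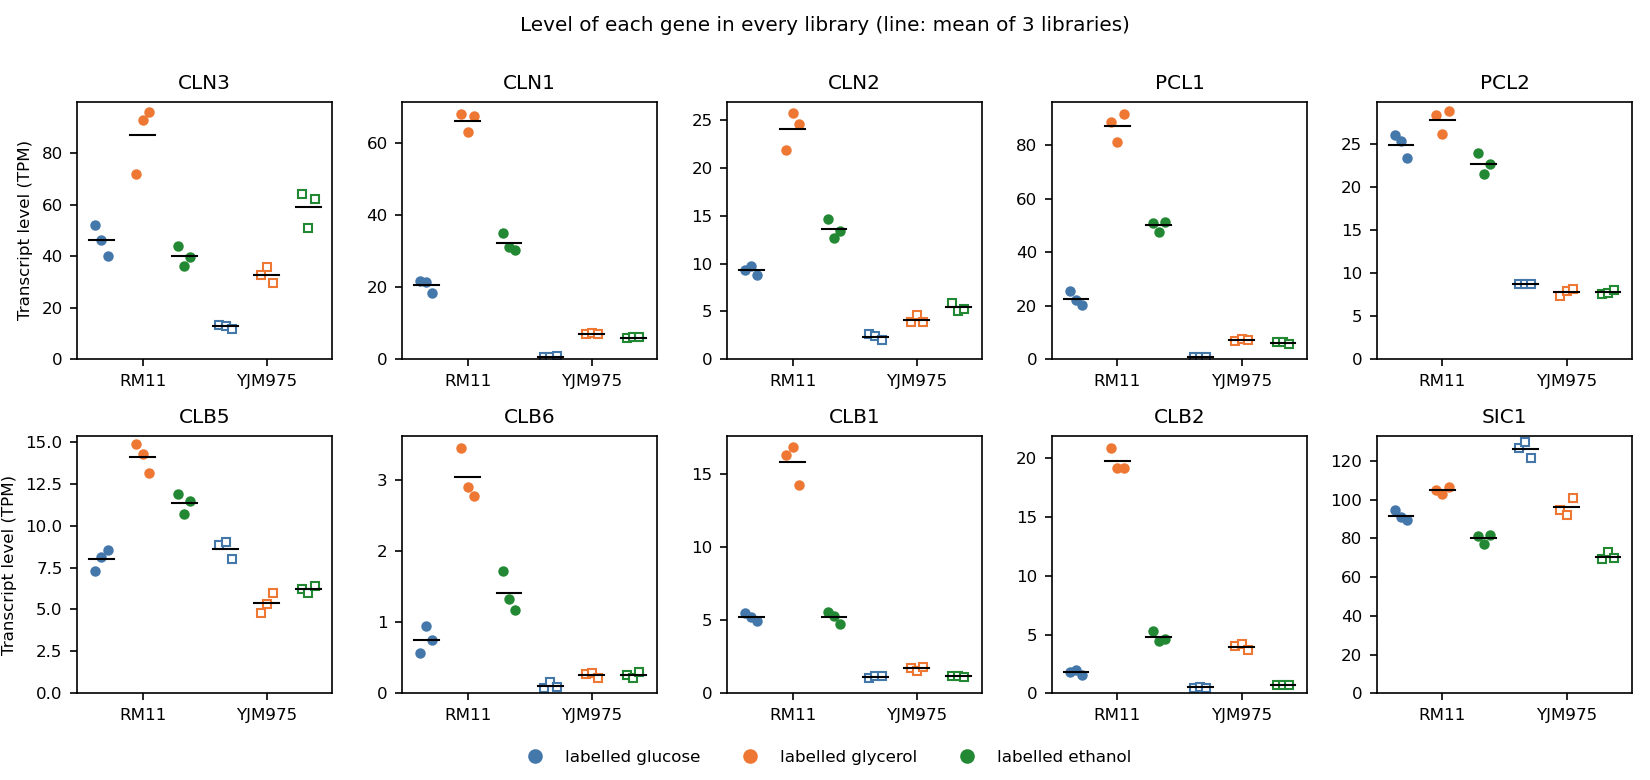
Level in TPM of each of the 10 genes (panels, each with its own scale from 0) in every library, with RM11 as filled circles, YJM975 as open squares, the labelled medium as the colour and the mean of 3 libraries as a line. The RM11 glycerol libraries are highest for 9 genes, and SIC1 alone peaks in YJM975 in the libraries labelled glucose, at 126 TPM.

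The genes that act at Start were lower in YJM975 than in RM11 in every medium, apart from CLN3 in ethanol. PCL1 and CLN1 differed most. PCL1, the cyclin of the kinase Pho85 at the G1 to S step and in bud formation, stood at 25.4, 22.1 and 20.4 TPM in the RM11 libraries labelled glucose, 88.7, 81.1 and 91.7 in glycerol and 51.0, 47.7 and 51.3 in ethanol. The YJM975 libraries held 0.645, 0.880 and 0.818 TPM in glucose, 6.68, 7.53 and 7.31 in glycerol and 6.44, 6.48 and 5.65 in ethanol. No YJM975 library reached the lowest RM11 library, and no neighbouring groups overlapped. The ratio of RM11 to YJM975 means was 29.0 in glucose, 12.2 in glycerol and 8.08 in ethanol. Counted from the most negative strain difference among the 6309 tested transcripts, PCL1 was number 17, 81 and 8 in those media.

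CLN1, a G1 cyclin that drives budding and passage through Start, followed the same order of groups as PCL1. RM11 libraries held 21.7, 21.5 and 18.4 TPM in glucose, 68.1, 62.9 and 67.6 in glycerol and 35.0, 31.0 and 30.4 in ethanol. In YJM975 CLN1 stood at 0.703, 0.565 and 0.825 TPM in glucose, 7.09, 7.25 and 6.89 in glycerol and 5.87, 6.15 and 6.02 in ethanol. All YJM975 libraries labelled glucose were below 1 TPM, and none of the 6 groups overlapped another. The log2 difference was -3.66 ± 0.07 in glucose, -3.06 ± 0.07 in glycerol and -2.24 ± 0.07 in ethanol, number 19, 122 and 14 from the most negative.

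CLN2, the paralogue of CLN1 with the same role, differed less between the strains. Its levels in RM11 were 9.38, 9.78 and 8.80 TPM in glucose, 21.9, 25.8 and 24.6 in glycerol and 14.7, 12.7 and 13.4 in ethanol. YJM975 libraries held 2.67, 2.42 and 2.01 TPM, 3.86, 4.59 and 3.91 and 5.85, 5.08 and 5.29 in the same media. Here too no 2 groups overlapped, but in YJM975 ethanol and not glycerol was highest. The strain difference was -1.62 ± 0.09 in glucose, -2.29 ± 0.09 in glycerol and -1.19 ± 0.09 in ethanol (limma adjusted p = 8.14e-12, 5.41e-14 and 5.10e-09).

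PCL2, the paralogue of PCL1, changed least with the medium among the Start genes. RM11 held 26.0, 25.3 and 23.3 TPM in glucose, 28.3, 26.2 and 28.8 in glycerol and 24.0, 21.5 and 22.7 in ethanol. YJM975 held 8.78, 8.76 and 8.73, 7.36, 7.91 and 8.14 and 7.61, 7.74 and 8.04 TPM. All 9 YJM975 libraries lay below all 9 of RM11, while libraries of different media overlapped in both strains. The strain difference of PCL2 was -1.41 ± 0.06, -1.71 ± 0.06 and -1.43 ± 0.06 in glucose, glycerol and ethanol (limma adjusted p = 1.91e-13, 1.06e-14 and 1.80e-12).

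CLN3, the upstream cyclin of G1, changed its strain order with the medium, as SIC1 did. In RM11 it stood at 52.2, 46.4 and 40.0 TPM in glucose, 71.7, 92.9 and 95.7 in glycerol and 44.0, 36.2 and 39.8 in ethanol. In YJM975 the libraries held 13.3, 13.0 and 11.9 TPM in glucose, 32.7, 35.7 and 29.6 in glycerol and 64.2, 51.0 and 62.1 in ethanol. RM11 lay above YJM975 without overlap in glucose and glycerol, and YJM975 lay above RM11 without overlap in ethanol. CLN3 differed by -1.78 ± 0.12 in glucose and -1.38 ± 0.12 in glycerol, and by 0.55 ± 0.12 in ethanol (limma adjusted p = 1.91e-10, 5.43e-09 and 0.00102). With median centring, which sets the median log2 level of all tested transcripts equal in every library, these were -1.35, -0.69 and 0.50. In order of level, the YJM975 ethanol group overlapped RM11 glucose, and RM11 glucose overlapped RM11 ethanol.

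**Figure D2:**
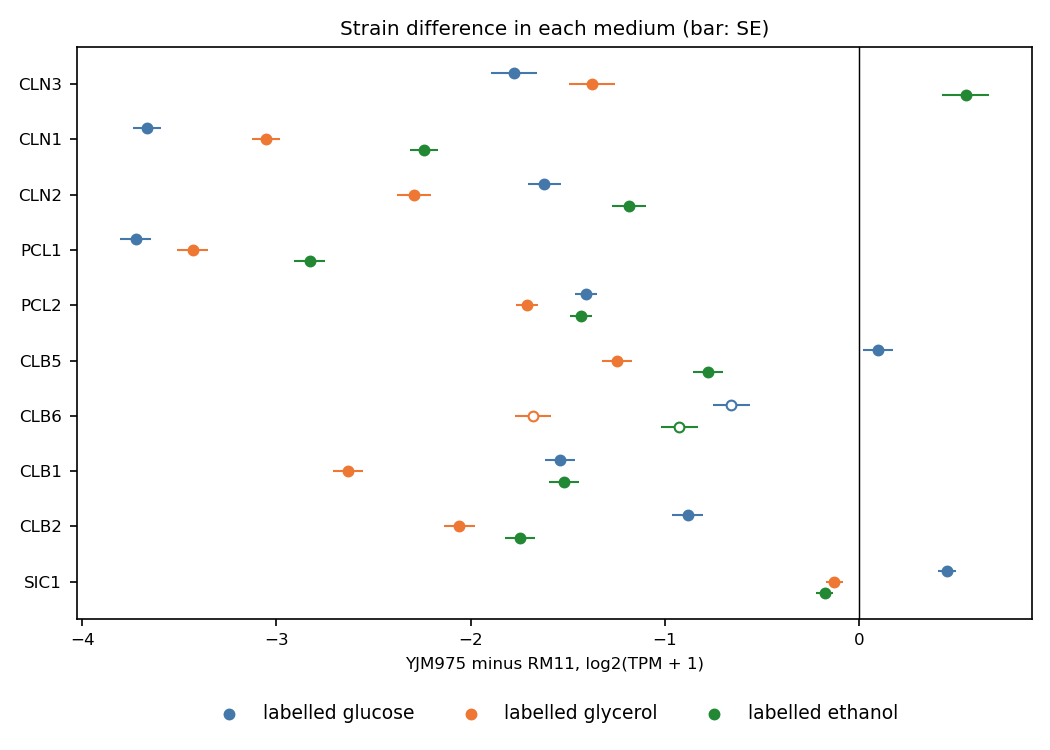
Strain difference, YJM975 minus RM11, of each gene in log2(TPM + 1), with the labelled medium as the colour and the standard error from limma as the bar; open circles are CLB6, from the fit without a filter. PCL1 and CLN1 lie farthest left within each medium, between -3.73 and -2.24, and CLN3 in ethanol, SIC1 in glucose and CLB5 in glucose, which did not pass the test, lie right of 0.

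The B-type cyclins of S phase did not move as a pair. CLB5, the main S-phase cyclin, had RM11 levels of 7.30, 8.13 and 8.57 TPM in glucose, 14.8, 14.3 and 13.1 in glycerol and 11.9, 10.7 and 11.5 in ethanol. YJM975 held 8.82, 9.04 and 7.99 TPM in glucose, 4.77, 5.35 and 5.98 in glycerol and 6.21, 6.0 and 6.38 in ethanol. The strains overlapped in glucose, and RM11 lay above YJM975 in the other media. The glucose difference of 0.10 ± 0.08 did not pass the test as deposited (limma adjusted p = 0.247), but was 0.52 and passed with median centring. In glycerol and ethanol CLB5 was lower in YJM975, at -1.25 ± 0.08 and -0.78 ± 0.08 (limma adjusted p = 4.82e-11 and 2.38e-07).

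CLB6, which shares the S-phase role of CLB5, was the least abundant member. Its RM11 levels were 0.565, 0.942 and 0.744 TPM in glucose, 3.45, 2.89 and 2.77 in glycerol and 1.71, 1.33 and 1.16 in ethanol. Every YJM975 library was at 0.301 TPM or lower, with 0.0697, 0.162 and 0.0862 TPM in glucose, 0.267, 0.286 and 0.220 in glycerol and 0.257, 0.223 and 0.301 in ethanol. The strains did not overlap in any medium, and the difference without the filter was -0.66 ± 0.09, -1.68 ± 0.09 and -0.92 ± 0.09 on the log2(TPM + 1) scale, which understates the change of low transcripts. The ratio of means of RM11 to YJM975 was 7.07, 11.8 and 5.39, from levels whose counting error is unknown.

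The mitotic cyclins were lower in YJM975 in each medium and highest in RM11 in glycerol. CLB2, the main mitotic cyclin, had RM11 levels of 1.84, 1.99 and 1.59 TPM in glucose, 20.8, 19.1 and 19.1 in glycerol and 5.27, 4.48 and 4.62 in ethanol. YJM975 held 0.483, 0.586 and 0.497 TPM, 4.05, 4.19 and 3.67 and 0.706, 0.717 and 0.745. No groups of CLB2 overlapped, and glycerol was highest in both strains. Strain differences were -0.88 ± 0.08, -2.06 ± 0.08 and -1.75 ± 0.08 (limma adjusted p = 1.17e-08, 7.30e-14 and 1.19e-11).

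CLB1, the paralogue of CLB2, held 5.51, 5.21 and 4.92 TPM in RM11 in glucose, 16.3, 16.8 and 14.3 in glycerol and 5.55, 5.30 and 4.76 in ethanol. In YJM975 it held 1.07, 1.19 and 1.16 TPM, 1.73, 1.56 and 1.82 and 1.20, 1.18 and 1.11. Glucose and ethanol libraries overlapped within each strain, and the RM11 glycerol libraries stood above all others. The strain difference in glycerol, -2.63 ± 0.08, was the most negative among the B-type cyclins (limma adjusted p = 2.15e-15), beside -1.54 ± 0.08 in glucose and -1.52 ± 0.08 in ethanol. In the R64 annotation CLB1 and CLB6 lie tail to tail on chromosome VII with 307 bases between the coding ends, and CLB2 and CLB5 likewise on chromosome XVI with 746 bases. The strandedness of the libraries is not given in the sources used here.

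SIC1, the inhibitor of Clb kinase, was the most abundant member and varied least. RM11 held 94.5, 91.1 and 89.4 TPM in glucose, 105, 103 and 106 in glycerol and 81.1, 77.1 and 81.7 in ethanol. YJM975 held 127, 129.9 and 121 TPM in glucose, 94.8, 92.2 and 101 in glycerol and 69.4, 72.8 and 69.6 in ethanol. YJM975 was higher in glucose without overlap and lower in glycerol and ethanol, also without overlap. SIC1 differed by 0.45 ± 0.05 in glucose and -0.18 ± 0.05 in ethanol (limma adjusted p = 4.88e-08 and 0.00365). In glycerol it differed by -0.13 ± 0.05 as deposited (limma adjusted p = 0.0147), but by 0.56 with median centring and by 0.22 when each library was rescaled without its 50 most abundant transcripts. Its call in glycerol was also lost without YJM975 glycerol replicate 2, at -0.10 (limma adjusted p = 0.0681).

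Of the 9 members tested, 7 were lower and 1 higher in YJM975 in glucose, where 83.1% of all tested transcripts were called, 60.7% lower and 22.5% higher. In glycerol all 9 were lower, among 86.2% called, 70.1% lower and 16.2% higher. In ethanol 8 were lower and 1 higher, among 48.0% called, 21.2% lower and 26.8% higher. The median member differed by -1.54, -2.06 and -1.43 in the 3 media, beside -0.38, -0.59 and 0.03 for all tested transcripts. The share of lower members lay farthest above that of all tested transcripts in ethanol. With median centring the counts were 7 lower and 2 higher, 8 lower and 1 higher, and 8 lower and 1 higher. Libraries of the strains did not overlap for 9, 10 and 10 of the 10 members, beside 84.0%, 86.4% and 53.9% of tested transcripts. CLN1, PCL1 and CLB2 passed the filter although YJM975 in glucose stood below 1 TPM, as did YJM975 in ethanol for CLB2, so these counts describe the members and were not used as a test of the set.

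Among the Start regulators, SWI4 and SWI6 were lower in YJM975 in every medium as deposited. SWI4, the DNA-binding subunit of SBF, averaged 6.79 ± 0.334 TPM for RM11 against 1.48 ± 0.161 for YJM975 in glucose, 9.68 ± 0.513 against 4.92 ± 0.200 in glycerol and 7.18 ± 0.119 against 4.66 ± 0.489 in ethanol. Its strain difference was -1.65 ± 0.07, -0.85 ± 0.07 and -0.53 ± 0.07 (limma adjusted p = 6.40e-13, 4.97e-09 and 1.04e-05). SWI6, the shared subunit of SBF and MBF, differed by -0.67 ± 0.07, -0.80 ± 0.07 and -0.21 ± 0.07. MBP1, the DNA-binding subunit of MBF, was lower in glucose (-0.53 ± 0.07) and glycerol (-0.76 ± 0.07) and higher in ethanol (0.36 ± 0.07). WHI5, the repressor of SBF, was higher in YJM975 in glucose, at 0.35 ± 0.11 (limma adjusted p = 0.00955) and did not pass the test in glycerol (-0.10) or ethanol (0.08). NRM1, a corepressor of MBF, was lower in glycerol (-2.26 ± 0.11) and ethanol (-1.12 ± 0.11). Of the 7 factors and partners listed, 4 were lower and 1 higher in glucose, 6 and 0 in glycerol, and 3 and 1 in ethanol, beside 60.7%, 70.1% and 21.2% of all tested transcripts lower. In glucose the list's share was near that of all transcripts. Its medians were -0.53, -0.85 and -0.09, beside -0.38, -0.59 and 0.03 for all tested transcripts. With median centring 2 were lower and 3 higher in glucose, 3 and 1 in glycerol, and 3 and 1 in ethanol. MBP1 in glucose and SWI6 and MBP1 in glycerol lay not far below the medians of all tested transcripts. WHI5 in glycerol lay above that median.

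Most other targets of SBF and MBF were lower in YJM975. Of 18, 16 were lower and 2 higher in glucose, 18 and 0 in glycerol, and 15 and 1 in ethanol, against the same 60.7%, 70.1% and 21.2% of all tested transcripts. Their medians were -1.43, -1.67 and -0.81, and those of all tested transcripts -0.38, -0.59 and 0.03. After median centring these were 14 and 3, 16 and 2, and 15 and 1. CDC21, the thymidylate synthase gene, averaged 16 ± 1.5 TPM in RM11 in glucose, against 1.06 ± 0.221 in YJM975. RNR1, the large subunit of ribonucleotide reductase, averaged 35.7 ± 0.874 TPM in RM11 in glycerol against 3.00 ± 0.230 in YJM975, with a log2 difference of -3.20 ± 0.08 (limma adjusted p = 1.92e-16). SVS1, a cell wall gene, differed by -1.94 ± 0.08 in ethanol.

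Genes of the G2 to M step were mostly lower as well. Of the 15 described for the CLB2 cluster and its regulators, 13 were lower and 1 higher in YJM975 in glucose, 15 and 0 in glycerol and 10 and 2 in ethanol. Of all tested transcripts 60.7%, 70.1% and 21.2% were lower and 22.5%, 16.2% and 26.8% higher. With median centring 10, 10 and 12 of the list were lower and 4, 1 and 1 higher. SWI5, the factor that drives SIC1 and a member of that cluster, averaged 3.57 ± 0.272 TPM in RM11 in glucose against 0.350 ± 0.0629 in YJM975, and 3.47 ± 0.200 against 0.666 ± 0.173 in ethanol. SWI5 was lower in YJM975 in all media (-1.76 ± 0.09, -1.26 ± 0.09 and -1.43 ± 0.09), whereas SIC1 was higher in glucose. The 1 gene of the list that was higher in glucose was FKH1, a forkhead factor named here after its values were seen (0.96 ± 0.06, limma adjusted p = 1.19e-10), and it was lower in glycerol (-1.22 ± 0.06). FKH2, its paralogue, which acts with Ndd1 at the cluster, was lower in glucose (-0.27 ± 0.09) and glycerol (-0.82 ± 0.09) and missed the threshold in ethanol (-0.05 ± 0.09, limma adjusted p = 0.703). NDD1, the coactivator, was lower in glucose (-0.78 ± 0.07) and glycerol (-0.52 ± 0.07) and higher in ethanol (0.32 ± 0.07). These are values as deposited. The medians of all tested transcripts were -0.38 in glucose and -0.59 in glycerol, and FKH2 in glucose and NDD1 in glycerol lay above them. CDC5, the polo kinase, differed by -2.25 ± 0.07 in glycerol.

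In glucose the destruction genes were split between higher and lower, while most of the other cyclins, kinases and inhibitors were lower as deposited. The kinase gene CDC28 was lower in YJM975 in each medium (-0.56 ± 0.05, -0.91 ± 0.05 and -0.23 ± 0.05). FAR1, an inhibitor of Cln kinase in mating, was also lower (-0.98 ± 0.11, -1.38 ± 0.11 and -0.48 ± 0.11), from group means of at most 3.46 TPM. Of the 17 other cyclins, kinases and inhibitors, 11, 13 and 7 were lower and 4, 2 and 0 higher in glucose, glycerol and ethanol, shares of lower calls near or above the 60.7%, 70.1% and 21.2% of all transcripts. With median centring the glucose split turned to 5 lower and 10 higher and the glycerol split to 7 and 7. PCL6, a Pho85 cyclin, differed by -1.39 ± 0.06 in glucose, and MIH1, the phosphatase that activates Cdc28 at mitosis, by -0.83 ± 0.08 in ethanol. XBP1, a repressor of cyclin genes under stress, was higher in YJM975 in glucose by 0.52 ± 0.09 and did not pass the test in glycerol (0.03) or ethanol (0.06). Of 12 genes for the destruction of cyclins and Sic1, 7 were higher and 4 lower in glucose, 0 and 12 in glycerol, and 2 and 2 in ethanol. Calls in either direction made up 83.1%, 86.2% and 48.0% of all tested transcripts, so the 4 of 12 in ethanol lay below that share. Median centring changed the glycerol split to 6 higher and 4 lower. CDC14, the phosphatase of mitotic exit, differed by -1.76 ± 0.06 in glucose.

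**Figure D3:**
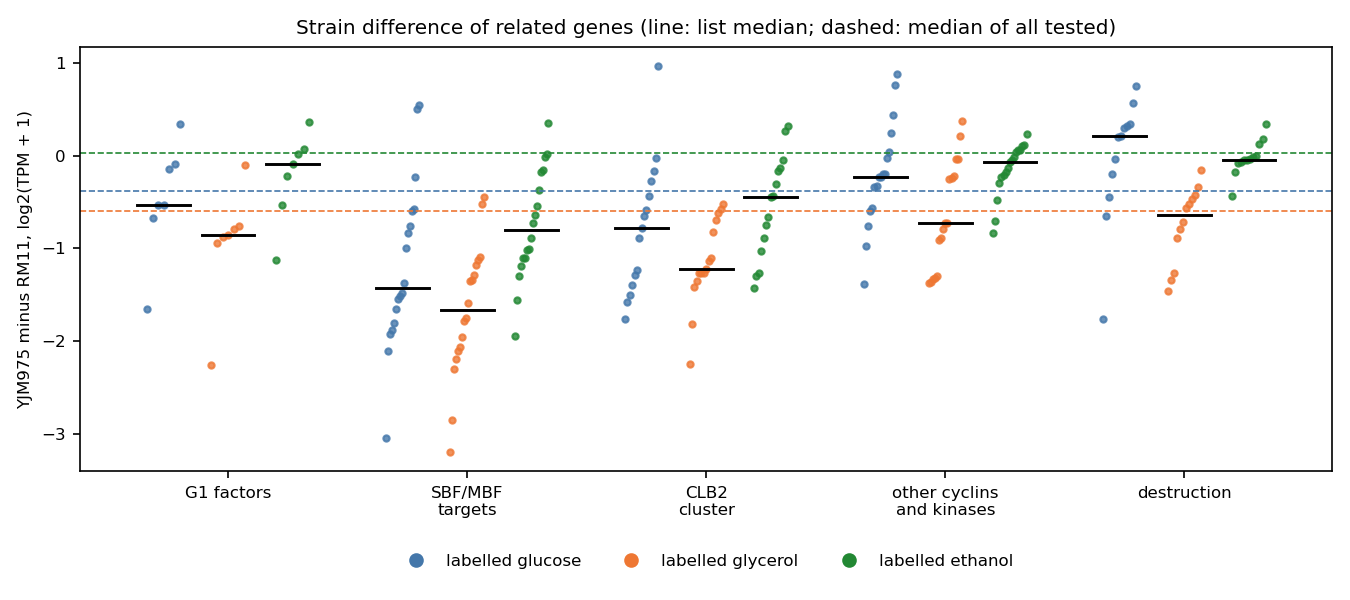
Strain difference in log2(TPM + 1) of every tested gene in 5 lists of the cell cycle, coloured by labelled medium, with the list median as a solid line and the median of all tested transcripts in that medium as a dashed line. The medians of the SBF and MBF targets, -1.43, -1.67 and -0.81 in glucose, glycerol and ethanol, lie farthest below the dashed line in each medium. The median of the destruction genes in glucose lies above its dashed line, at 0.21.

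In RM11 all 9 tested members were higher in glycerol than in the libraries labelled glucose, among 81.7% of tested transcripts called, 53.0% higher and 28.7% lower. CLB2 rose most, 10.9-fold in mean TPM, with a log2 difference of 2.88 ± 0.08 (limma adjusted p = 2.00e-15). PCL1 rose by 1.90 ± 0.08, CLN1 by 1.64 ± 0.07, CLB1 by 1.43 ± 0.08, CLN2 by 1.28 ± 0.09, CLN3 by 0.89 ± 0.12 and CLB5 by 0.75 ± 0.08. The differences of PCL2 and SIC1 were small, 0.15 ± 0.06 and 0.19 ± 0.05, and turned to -0.12 and -0.09 with median centring. PCL2 also lost its call without RM11 glucose replicate 3, glycerol replicate 1 or glycerol replicate 3, with values from 0.11 to 0.14. CLB6 rose by 1.21 ± 0.09 without the filter, where 79.9% of transcripts were called. The members' median was 1.28, beside 0.23 for all tested transcripts.

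From glycerol to ethanol in RM11 the members fell, 9 of 9, among 75.5% called, 54.1% lower and 21.4% higher. The log2 difference was -1.84 ± 0.08 for CLB2, -1.43 ± 0.08 for CLB1, -1.09 ± 0.12 for CLN3, -1.02 ± 0.07 for CLN1, -0.79 ± 0.08 for PCL1 and -0.78 ± 0.09 for CLN2. SIC1 (-0.39), CLB5 (-0.29) and PCL2 (-0.28) lost their calls with median centring, at -0.08, 0.02 and 0.03. This comparison shares the RM11 glycerol libraries with the one above, and it lies within 1 run if the name prefix is a run label.

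Between ethanol and the libraries labelled glucose in RM11, 5 members were higher, 1 was lower and 3 did not pass the test, among 69.4% called, 32.0% higher and 37.4% lower. PCL1 was higher by 1.12 ± 0.08, CLB2 by 1.04 ± 0.08, CLN1 by 0.62 ± 0.07, CLN2 by 0.50 ± 0.09 and CLB5 by 0.46 ± 0.08. SIC1 was lower, at -0.19 ± 0.05. CLB1 held 0.998 times its glucose mean in ethanol (limma adjusted p = 0.975), and its libraries overlapped. CLN3 differed by -0.20 ± 0.12 and PCL2 by -0.13 ± 0.06, which did not pass. Without RM11 glucose replicate 3 CLN3 passed at -0.30 and PCL2 at -0.17 (limma adjusted p = 0.0472 and 0.0226), and PCL2 also passed without RM11 ethanol replicate 1, at -0.16.

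The sum of markers of meiosis and spores was likewise highest in RM11 in glycerol. The summed level of 13 such genes was 1057 to 1187 TPM in the RM11 glycerol libraries, 88.4 to 91.0 in RM11 glucose and 139 to 167 in RM11 ethanol. In YJM975 it was 250 to 275 TPM in glycerol, 32.7 to 36.9 in glucose and 112 to 127 in ethanol. None of the 13 was at 0 in all libraries of a group. SPS4, a sporulation gene, made up 636 TPM of the RM11 glycerol sum, and REC8, the meiotic cohesin, stood at 19.2 ± 1.04 TPM there and 5.95 ± 0.452 TPM in glucose. From glucose to ethanol in RM11 the markers were split. SPS4 (1.55), IME1 (1.25), DMC1 (1.01) and SPR3 (0.95) were higher. SPS1 (-0.67), SSP2 (-0.66), ZIP1 (-0.33) and IME2 (-0.23) were lower. HOP1, SPO11, SPO13, NDT80 and REC8 did not pass the test. In YJM975 the markers were split too. From glucose to ethanol IME1 (4.85), NDT80 (0.99), SPR3 (0.60), SPO13, ZIP1 and DMC1 were higher there. IME2 (-0.97), HOP1 (-0.50), SPS1 (-0.41), SSP2 and SPO11 were lower, and SPS4 and REC8 did not pass. From glycerol to ethanol IME1 (-1.33), SPO11 (-0.50), REC8, ZIP1 and NDT80 were lower in YJM975. SPO13 (0.58), DMC1 (0.54) and SSP2 (0.37) were higher, and the rest did not pass. As background, CLB1, CLB5 and CLB6 act in meiosis too, whereas CLB2 is known as a cyclin of mitotic cells. The part of meiotic cells in the RM11 glycerol levels was not tested.

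In YJM975 CLN1, CLN2, CLN3, PCL1 and the mitotic cyclins rose from the libraries labelled glucose to glycerol, and CLB5, PCL2 and SIC1 were lower. In all 6 members were higher and 3 lower, among 83.7% called, 41.2% higher and 42.6% lower. CLN1 rose by 2.25 ± 0.07, 10.1-fold in mean TPM, and PCL1 by 2.20 ± 0.08 (limma adjusted p = 6.99e-15 and 3.54e-14). CLB2 rose by 1.71 ± 0.08, CLN3 by 1.29 ± 0.12, CLN2 by 0.61 ± 0.09 and CLB1 by 0.34 ± 0.08. CLB5 changed by -0.60 ± 0.08 and SIC1 by -0.39 ± 0.05. PCL2 was lower, at -0.15 ± 0.06, a call that was lost without YJM975 glycerol replicate 1 (-0.11) and that turned to 0.0055 when rescaled without the most abundant transcripts. CLB6 did not pass the test (0.19 ± 0.09, limma adjusted p = 0.0805, in the fit without the filter, which called 82.4% of transcripts), although its glycerol libraries lay above those of glucose.

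From glucose to ethanol in YJM975, 5 members were higher, 3 lower and 1 did not pass, among 86.8% called, 56.5% higher and 30.3% lower. CLN3 rose by 2.13 ± 0.12, from the lowest to the highest YJM975 group, and CLN1 by 2.05 ± 0.07, PCL1 by 2.01 ± 0.08 and CLN2 by 0.93 ± 0.09. CLB2 differed by 0.18 ± 0.08 (limma adjusted p = 0.0433) as deposited and by -0.26 with median centring, and its call was lost, at 0.16 to 0.19, without any 1 of RM11 glucose replicate 1, RM11 glycerol replicates 2 and 3, RM11 ethanol replicate 3, YJM975 glucose replicates 1 and 3, YJM975 glycerol replicate 1 and the 3 YJM975 ethanol replicates. SIC1 changed by -0.83 ± 0.05, CLB5 by -0.42 ± 0.08 and PCL2 by -0.15 ± 0.06, the last not called without YJM975 ethanol replicate 1 (-0.13). CLB1 was at 0.02 ± 0.08, or -0.42 with median centring. All tested transcripts had a median of 0.35 in this comparison, above the members' 0.18.

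Between glycerol and ethanol in YJM975, 3 members were higher, 5 lower and 1 did not pass, among 77.1% called, 64.0% higher and 13.1% lower. CLB2 changed by -1.53 ± 0.08 (limma adjusted p = 1.14e-11), SIC1 by -0.44 ± 0.05 and CLB1 by -0.32 ± 0.08. CLN3 rose by 0.83 ± 0.12 (limma adjusted p = 5.60e-06), and by 0.41 with median centring. CLN2 (0.32 ± 0.09) and CLB5 (0.18 ± 0.08) were higher as deposited. With median centring CLB5 was lower (-0.24) and CLN2 did not pass the test (-0.10). CLN1 and PCL1 were lower, at -0.20 ± 0.07 and -0.19 ± 0.08. The call of CLB5 was lost, at 0.11 to 0.18, without YJM975 glycerol replicate 1 or 2 or YJM975 ethanol replicate 1 or 3. That of PCL1 was lost, at -0.19 to -0.13, without RM11 glucose replicate 2, RM11 glycerol replicate 1, RM11 ethanol replicate 3, YJM975 glycerol replicate 2 or 3, or YJM975 ethanol replicate 3. PCL2 held 0.999 times its glycerol mean in ethanol as deposited, and differed by -0.42 with median centring. The YJM975 glycerol libraries held 238638 to 244720 TPM in 13 markers of quiescence and starvation, against 81509 to 85273 in glucose and 177032 to 185653 in ethanol, and the part of this in the members' levels was not tested. In RM11 the same sum was 135954 to 138940 TPM in glucose, 148630 to 154226 in glycerol and 186845 to 209378 in ethanol. None of these 13 was at 0 in all libraries of a group, and they did not all move with their sum. From glycerol to ethanol in YJM975 SPG1 (-0.93), HSP12 (-0.85), GRE1 (-0.66), SIP18, DDR2 and SPG4 were lower. HSP26 (1.18), RIM15 (1.05), SNZ1 (0.98), SNO1, HSP104, SPG5 and XBP1 were higher. From glucose to ethanol in YJM975 HSP26 (-2.64), HSP104 (-2.16) and SPG1 (-0.95) were lower and the rest higher. In RM11 from glucose to glycerol HSP26 (-4.07), SNZ1 (-2.47), SNO1 (-2.29), HSP104 (-2.10) and HSP12 (-0.69) were lower. SIP18 did not pass the test there and the rest were higher. In RM11 from glucose to ethanol HSP26 (-1.55), HSP104 (-1.41), SNO1 and HSP12 were lower and the rest higher.

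**Figure D4:**
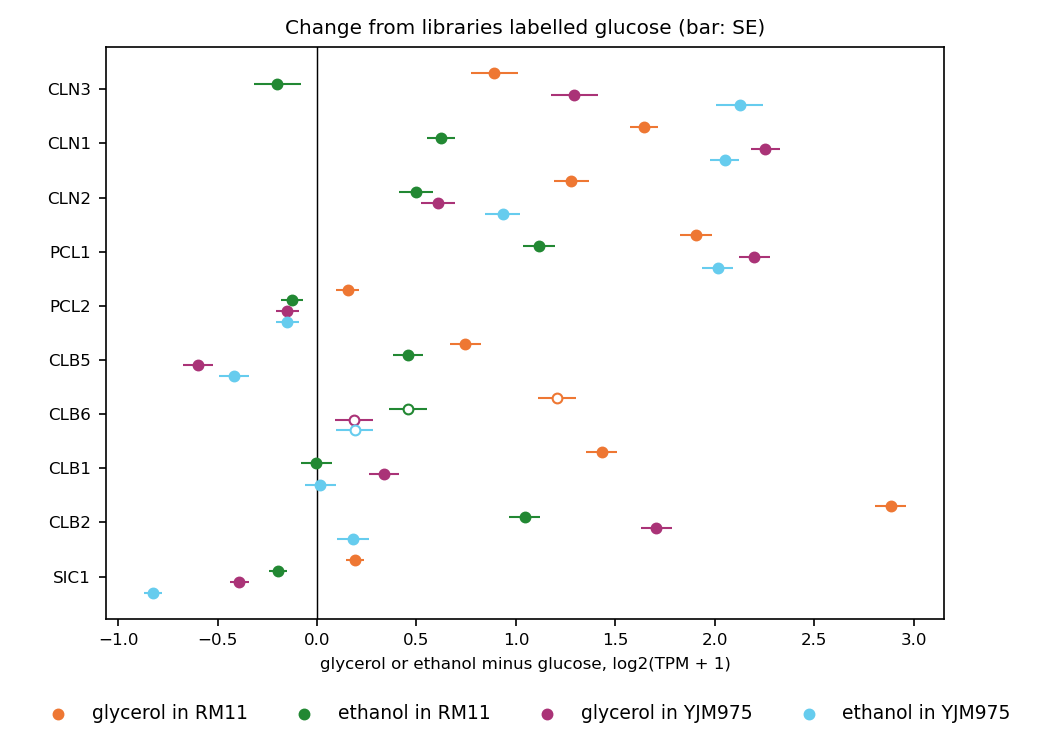
Change of each gene from the libraries labelled glucose to glycerol or ethanol in each strain, in log2(TPM + 1), with the standard error as the bar; open circles are CLB6, from the fit without a filter, and both changes of a strain share its glucose libraries. CLB2 in RM11 glycerol lies farthest right at 2.88, and SIC1 in YJM975 ethanol farthest left at -0.83.

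The strains' responses differed for most members, as they did for most tested transcripts. The strain difference of a change is the change in YJM975 minus that in RM11. From glucose to glycerol it was -1.34 ± 0.11 for CLB5, which rose in RM11 and fell in YJM975, and -1.18 ± 0.11 for CLB2 and -1.09 ± 0.11 for CLB1, which rose more in RM11 (limma adjusted p = 4.12e-09, 3.62e-08 and 6.44e-08). With median centring these were -1.08, -0.92 and -0.83. For CLN1 it was 0.61 ± 0.10 as deposited but -0.40 with a pseudocount of 5, with group means below 1 TPM in the YJM975 libraries labelled glucose. PCL1, at 0.29 ± 0.11, likewise turned to -0.67, and was not called without RM11 glucose replicate 1, RM11 glycerol replicate 2, YJM975 glucose replicate 1 or YJM975 glycerol replicate 2 (0.21 to 0.26). CLN3, at 0.40 ± 0.17, was not called without RM11 glucose replicate 1 or 2, RM11 glycerol replicate 1, YJM975 glucose replicate 3 or YJM975 glycerol replicate 1 or 2 (0.27 to 0.40). In all, 3 members were higher and 6 lower here, among 78.3% called, 31.5% higher and 46.7% lower.

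For CLN3 the strain difference of the change was 2.32 ± 0.17 from glucose to ethanol and 1.92 ± 0.17 from glycerol to ethanol (limma adjusted p = 9.80e-10 and 9.71e-09), or 1.85 and 1.19 with median centring. From glucose to ethanol 4 members were higher and 3 lower, among 76.8% called, 56.5% higher and 20.2% lower, and 3 and 5 with median centring. SIC1 (-0.63 ± 0.06), CLB5 (-0.87 ± 0.11) and CLB2 (-0.86 ± 0.11) were the lower ones as deposited. From glycerol to ethanol 8 were higher and 0 lower, among 80.8% called, 65.4% higher and 15.4% lower. The median of all tested transcripts was itself 0.60 there, and median centring left 3 higher and 4 lower, with PCL1, PCL2, CLB2 and CLB5 turned from higher to -0.13, -0.45, -0.42 and -0.26. The call of CLB2, 0.31 ± 0.11, was also lost without YJM975 glycerol replicate 3 (0.27). The 3 comparisons share libraries and are not independent.

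Paralogues took different shares of their pair by strain and medium. In RM11 the TPM of CLN1 was 2.09 to 3.11 times that of CLN2 in all 9 libraries. In YJM975 it was 0.234 to 0.411 times in glucose, 1.58 to 1.84 in glycerol and 1.00 to 1.21 in ethanol. CLN2 was thus the more abundant of the pair in the YJM975 libraries labelled glucose. PCL1 was 0.871 to 0.977 times PCL2 in RM11 glucose, 3.10 to 3.18 in glycerol and 2.13 to 2.27 in ethanol. YJM975 had 0.0734 to 0.10, 0.899 to 0.952 and 0.704 to 0.846 times, with PCL2 above PCL1 in each library. CLB1 exceeded CLB2 in glucose in both strains, 2.62 to 3.10 times in RM11 and 2.04 to 2.33 times in YJM975. CLB2 exceeded CLB1 in glycerol in both, at 0.746 to 0.880 and 0.372 to 0.496 times. CLB5 was 4.31 to 12.9 times CLB6 in RM11 and 17.8 to 127 times in YJM975. CLB5 stood at 0.124 to 0.141 times SIC1 in RM11 glycerol and at 0.0503 to 0.0594 times in YJM975 glycerol. In glucose it was 0.0772 to 0.0958 times in RM11 and 0.0658 to 0.0697 in YJM975. In ethanol it was 0.138 to 0.147 times in RM11 and 0.0825 to 0.0916 in YJM975. The strains did not overlap in any medium. These ratios are descriptions with no test. kallisto divides reads between similar transcripts, and strain sequences that depart from the reference used can lose reads, and the part of either in the ratios was not tested.

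**Figure D5:**
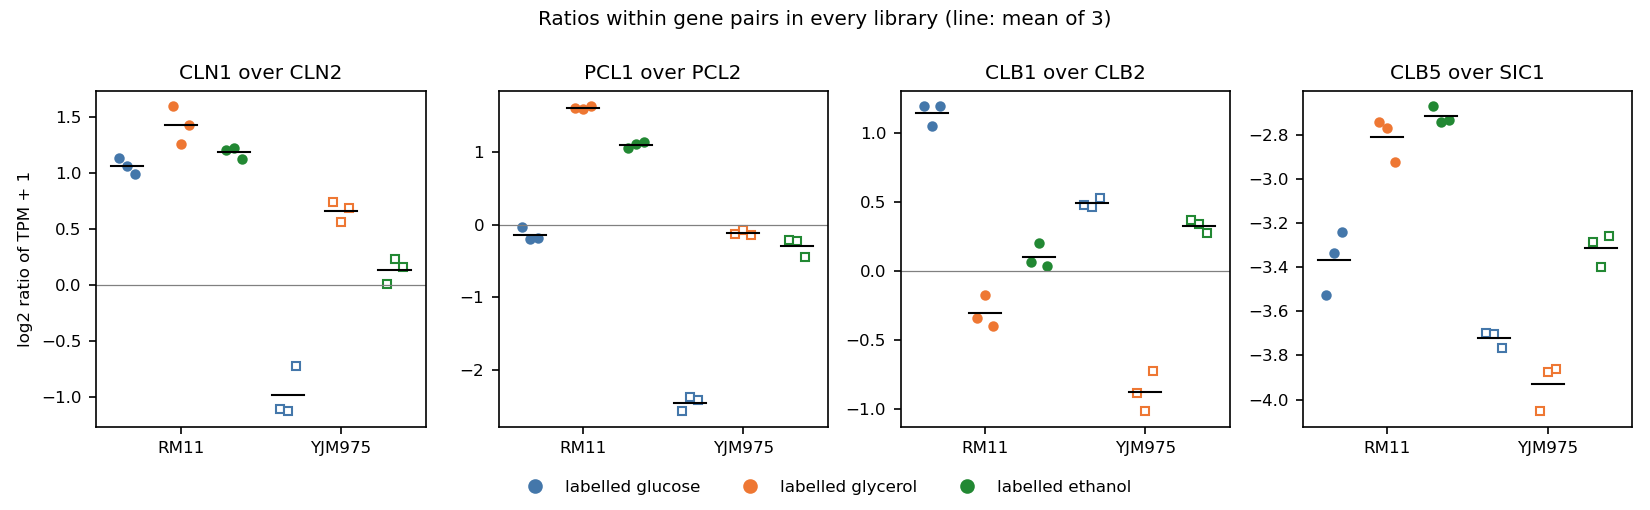
Log2 ratio of TPM + 1 within 4 gene pairs (panels) in every library, with RM11 as filled circles, YJM975 as open squares, the labelled medium as the colour and the mean of 3 as a line. CLN1 lies above CLN2 in all RM11 libraries and below it in the YJM975 libraries labelled glucose, and CLB1 lies below CLB2 in glycerol in both strains.

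Likeness to a member was measured as the Pearson r of log2 levels over the 18 libraries of 6 groups. CLN1 and PCL1 were both most like TOS6, known as a target of SBF, with Pearson r of 0.993 and 0.995, and then AXL2, a bud site gene, with 0.986 and 0.989. The next were GPA1, the G protein alpha subunit of mating, for CLN1 (0.985) and TOS4 for PCL1 (0.979). CLN2 was most like RNR1 (0.996) and CSI2 (0.986), and CLB1 like REC8 (0.997) and SVS1 (0.994). CLB2 was most like AIM20 (0.987), CLN3 like PHO91 (0.988) and PCL2 like YHR218W (0.994). CLB5, CLB6 and SIC1 were most like YOR248W (0.936), INA1 (0.980) and IXR1 (0.952). The points share groups, and these values are descriptions with no test.

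The label of a/α diploids was set beside 10 genes expressed in haploid cells. Their summed level was 666 to 694 TPM in RM11 glucose, 562 to 589 in glycerol and 864 to 930 in ethanol, and 336 to 418, 458 to 498 and 600 to 654 TPM in YJM975. None was at 0, and all 10 averaged at least 1 TPM in each group except YJM975 glucose, where 1 was below. The a-factor gene MFA1 stood at 152 to 586 TPM as group means, whereas the alpha-factor gene MF(ALPHA)1 stood at 1.37 to 7.02 TPM and the receptor gene STE3 at 0.723 to 3.82 TPM. The part of this signal in the members' levels was not tested.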

How the data were processed

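Polyadenylated RNA of 18 cultures was sequenced, 3 biological replicates per strain and medium per the labels. The deposited table holds TPM made by the authors, and the 1 tool that the submitters' processing notes name is kallisto. Its version and settings, the transcript sequences and the genome build were not given in the sources used here. TPM keeps no depth, and each library sums to 1000000 within 0.566 TPM. Samples were grouped by strain and labelled medium, and no column was left unused.

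Transcripts with a mean of at least 1 TPM were tested (6309 of 6612) with limma 3.58.1 (R 4.3.3) on log2(TPM + 1). The fit had 6 group means and 12 residual degrees of freedom, with variances moderated along a trend in mean level and Benjamini-Hochberg adjustment within each of 12 contrasts, with calls below 0.05. Tables and plots used Python 3.11.15, pandas 2.3.3, NumPy 2.4.6, SciPy 1.17.1 and matplotlib 3.10.9. The steps were tested on simulated data. The members, the related lists and the tests were chosen with earlier results of these data known. Named genes are the members, a set of regulators, and genes drawn from the 4 of each related list with the largest called difference in a strain contrast. FKH1 and the markers of meiosis and starvation named for a change between media were added after their values were seen. Likeness names the 3 transcripts with the highest Pearson r per member, of which at least the first is given. Symbols and promoters come from RefSeq R64, and 5929 transcript names matched it. Alternatives were other pseudocounts (0.1 and 5), filters (none and 10 TPM), median centring, rescaling without the 50 most abundant transcripts, the compared groups only, no trend, the replicate number as a block, and each library left out. A fit without the glucose libraries and the 800-base window were added after the data were seen.

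Replicates of a group correlated with r from 0.9945 to 0.9977 across transcripts, and 0 pairs of libraries were identical. Results for 1 regulator and its targets are not reported here.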

Additional observations from a re-analysis of the deposited data

Results flagged for a closer look

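The change between media differed between the strains for 24 pairs of a member and a comparison, by limma's test of the difference itself (adjusted p below 0.05). Values are the YJM975 change minus the RM11 change in log2(TPM + 1).

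From glucose to glycerol, the B-type cyclins had the most negative of these differences, CLB5 at -1.34, CLB2 at -1.18 and CLB1 at -1.09. CLN2 at -0.67, SIC1 at -0.58 and PCL2 at -0.30 were negative too, the last -0.043 and no longer called with median centring. CLN1 at 0.61, CLN3 at 0.40 and PCL1 at 0.29 were positive, and CLN1 and PCL1 turned negative with a pseudocount of 5.

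From glucose to ethanol, CLN3 stood at 2.32, CLN1 at 1.43, PCL1 at 0.90 and CLN2 at 0.43, while CLB5 stood at -0.87, CLB2 at -0.86 and SIC1 at -0.63. CLN2 turned to -0.037 with median centring, and PCL1 to -0.045 with a pseudocount of 5.

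From glycerol to ethanol, all 8 were positive: CLN3 at 1.92, CLB1 at 1.11, CLN2 at 1.11, CLN1 at 0.82, PCL1 at 0.60, CLB5 at 0.47, CLB2 at 0.31 and PCL2 at 0.28. The median of all tested transcripts was 0.60 in the same comparison. With median centring CLN3, CLB1 and CLN2 were still called higher, at 1.19, 0.38 and 0.37.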

How the results depend on the processing

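Depth is unknown, levels are relative to a fixed total, and the glucose label and the RM11 glycerol label are in doubt. If the name prefix is a run label, a change from the libraries labelled glucose cannot be told apart from a change of run. Of 735 strain differences recomputed over members and settings, 730 kept their direction and call. Many of these leave out a library of neither compared group, which can change the call but not the difference. SIC1 in glycerol turned to 0.56 with median centring and 0.22 with rescaling. CLB5 in glucose gained its call under both.

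Counts of called members moved by more than 1.5 times with the 10 TPM filter, which leaves 5 members tested. The strain differences then gave 5, 5 and 5, the RM11 comparisons glycerol to glucose, ethanol to glucose and ethanol to glycerol 5, 3 and 5, the same in YJM975 5, 5 and 4, and the strain differences of these 5, 4 and 4. Rescaling gave 5 for the last. With single libraries left out the counts ranged from 8 to 8, 8 to 9 and 9 to 9 between strains in glucose, glycerol and ethanol. They ranged from 8 to 9, 6 to 8 and 9 to 9 between media in RM11, from 8 to 9, 6 to 8 and 6 to 8 in YJM975, and from 7 to 9, 7 to 7 and 7 to 8 for the strain differences of the changes.

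Median centring reversed, in RM11, PCL2 and SIC1 from glucose to glycerol (-0.12 and -0.087), CLB1 from glucose to ethanol (0.028) and CLB5 and PCL2 from glycerol to ethanol (0.020 and 0.030). In YJM975 it reversed CLB1 and CLB2 from glucose to ethanol (-0.42 and -0.26) and CLB5 and CLN2 from glycerol to ethanol (-0.24 and -0.098). Among strain differences of the change it reversed CLB1 and CLN2 from glucose to ethanol (-0.45 and -0.037) and CLB2, CLB5, PCL1 and PCL2 from glycerol to ethanol (-0.42, -0.26, -0.13 and -0.45). Rescaling reversed CLB1 from glucose to ethanol in RM11 (0.031) and YJM975 (-0.045), PCL2 from glucose to glycerol in YJM975 (0.0055) and CLB5 from glycerol to ethanol in YJM975 (-0.054). Among strain differences of the change it reversed CLB1 from glucose to ethanol (-0.076) and CLB2 and PCL2 from glycerol to ethanol (-0.22 and -0.092). A pseudocount of 5 reversed the strain difference of the change from glucose to glycerol of CLN1 and PCL1 (-0.40 and -0.67) and from glucose to ethanol of PCL1 and PCL2 (-0.045 and 0.0034). A pseudocount of 0.1 reversed that of CLB2 from glycerol to ethanol (-0.28). Leaving out a library reversed 5 differences near 0, none of which was called with any library left out. The ranges were -0.043 to 0.049 for CLB1 from glucose to ethanol in RM11, -0.0083 to 0.034 for it in YJM975, -0.032 to 0.060 for its strain difference, -0.037 to 0.027 for PCL2 from glycerol to ethanol in YJM975, and -0.060 to 0.019 for the strain difference of PCL2 from glucose to ethanol. The causes were not tested.

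Replicate numbers did not pair the libraries: the deviations of same-numbered libraries correlated with r from -0.217 to 0.159, and 4 of 18 libraries were closest to their own number. With the replicate block no count of called members moved by over 1.5 times, and only CLB5 (0.18, limma adjusted p = 0.0535) and PCL1 (-0.19, limma adjusted p = 0.0572) from glycerol to ethanol in YJM975 lost their calls. Without the glucose libraries all 45 recomputed values kept their call. Their direction could not change, because the fit gives each group its own mean.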
